A study of Mus musculus with 4 samples.

Results

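The T-box genes encode transcription factors that share a DNA-binding domain, the T-box, and act in the heart, limbs, pharynx and gut of the embryo and in lymphocytes. Array signal at 10 of them, Tbx1, Tbx2, Tbx3, Tbx4, Tbx5, Tbx15, Tbx18, Tbx20, Tbx21 and Eomes, was compared between intestine of mice aged 32 months and 3 months. The list was chosen with knowledge of the measured log2 ratios of 32-month over 3-month signal that are given here, so these ratios are a description and carry no test. In that sense the genes were selected on the values described. A probe was taken when its gene name in the scanner files, without a distance suffix and with names shared by 2 genes split, was one of the 10. This gave 56 of the 83122 probes on both arrays and 11 of 19133 regions, a region being neighbouring probes of one name at most 1000 bp apart. Of these 11 regions, 10 had at least 2 usable probes and were measured, against 15352 measured regions in all.

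The DNA was isolated from intestine of C57BL/6, a widely used inbred strain, at 32 months (labelled with the dye Cy5) and at 3 months (labelled with Cy3). Both DNAs were hybridised together to 2 custom Agilent arrays that tile promoters, for a series typed as methylation profiling, so each age is 1 sample per array, with no dye swap and no replicate. Tbx3, Tbx5 and Tbx15 lay on the first array, which covers chromosomes 1 to 8, and the other 7 genes on the second. No genotype or treatment is given, and a scanner header marks both samples WT. Not given in the sources used here are the sex and number of mice behind a sample, whether and how methylated DNA was enriched, and the build of the positions. A signal below is therefore an amount of labelled DNA at a probe and not a methylation level, and more cells carrying a mark cannot be told apart from more of it per cell. Age cannot be told apart from dye or from the pair of samples used. Since genomic DNA was measured, marker RNA could not be used to check the tissue label.

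DNA methylation in mammals is placed mostly on cytosines that precede a guanine (CG sites), and promoters rich in such sites are usually free of it where a gene can be switched on. In mice and humans, T-box factors bind a shared core motif and differ in whether they activate or repress, and several work in pairs that arose by duplication, such as Tbx2 with Tbx3, Tbx4 with Tbx5 and Tbx15 with Tbx18. Tbx21 (T-bet) and Eomes are the members known for lymphocytes, which the intestinal wall holds in large numbers.

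A probe's log2 ratio is that of 32-month over 3-month signal minus the median of its array, which was 0.0044 for array 1 and -0.14 for array 2, so ratios on the second array are slightly above those of the printed signals. A probe was usable when its signal was well above background at 1 age or both. The value of a region is the median over its usable probes, given with the SD over probes, which is not a replicate error. A region was called higher at 32 months when that median was at least 1 (2-fold) and all usable probes were above 0, and lower in the mirrored case. Signal of replicated control spots within an array gives a scale for measurement error: their log2 ratios had an SD of 0.26 over 88 spots on the first array and 0.19 over 93 spots on the second.

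The probes below are those of Tbx21, Tbx3, Tbx4 and Tbx15 at which the ages differed most, with neighbouring probes of Tbx3 and Tbx15 whose signals were close at both ages shown for contrast. Each is printed 5′ to 3′ as deposited, with CG sites in capitals, and with the position and annotation that the files give. Their strand is not given in the files.
Tbx21 probe 1 (promoter, chr11:96931742-96931799): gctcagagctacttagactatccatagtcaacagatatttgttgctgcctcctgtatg
Tbx21 probe 2 (promoter, chr11:96931926-96931970): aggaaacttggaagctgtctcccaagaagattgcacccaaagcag
Tbx21 probe 3 (promoter, chr11:96932110-96932154): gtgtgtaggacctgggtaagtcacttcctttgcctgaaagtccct
Tbx21 probe 4 (promoter, chr11:96932355-96932414): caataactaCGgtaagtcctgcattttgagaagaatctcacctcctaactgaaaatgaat
Tbx3 probe 3 (promoter, chr5:119930990-119931034): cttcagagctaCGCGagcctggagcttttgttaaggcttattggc
Tbx3 probe 4 (inside, chr5:119931322-119931366): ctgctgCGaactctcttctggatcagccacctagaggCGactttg
Tbx3 probe 5 (inside, chr5:119931455-119931503): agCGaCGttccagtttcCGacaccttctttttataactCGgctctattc
Tbx3 probe 6 (inside, chr5:119931736-119931794): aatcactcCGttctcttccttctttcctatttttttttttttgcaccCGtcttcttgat
Tbx4 probe 6 (inside, chr11:85706255-85706299): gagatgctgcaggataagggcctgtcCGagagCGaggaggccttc
Tbx4 probe 7 (inside, chr11:85706527-85706574): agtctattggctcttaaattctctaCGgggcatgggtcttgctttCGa
Tbx15 probe 1 (promoter, chr3:99382113-99382172): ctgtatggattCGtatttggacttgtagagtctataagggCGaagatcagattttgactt
Tbx15 probe 2 (promoter, chr3:99382311-99382355): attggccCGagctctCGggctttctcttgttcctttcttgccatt
Tbx15 probe 3 (inside, chr3:99382999-99383045): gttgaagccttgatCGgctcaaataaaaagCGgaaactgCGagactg

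Tbx21 was the 1 region of the 10 that was called higher at 32 months, and no T-box region among them was called lower. Of all measured regions, 2.01% were called higher and 0.632% lower (1.36% and 0.585% on array 1, 2.64% and 0.677% on array 2). The single call among 10 regions is read here as a description of Tbx21 in this 1 pair of samples and not of the list. The median over the 10 regions was 0.52, against 0.015 over all measured regions, and their mean was 0.34 against 0.061. The median was above 0 in 8 of the 10 regions, against 52.2% of all, the exceptions being Tbx2 and Tbx5. Of the 52 usable T-box probes, 39 (75%) were above 0, against 51.6% of all usable probes. Usable probes had a median of -0.033 on array 1 and 0.087 on array 2, which holds most of these genes. The pooled shares above 0 are therefore a low baseline for array 2. At or above a log2 ratio of 1 were 9 of the 52 (17.3%), against 6.35%, and at or below -1 were 3 (5.77%), against 3.35%. These shares follow from a list chosen with the ratios known and show nothing about T-box genes in general.

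**Figure D1:**
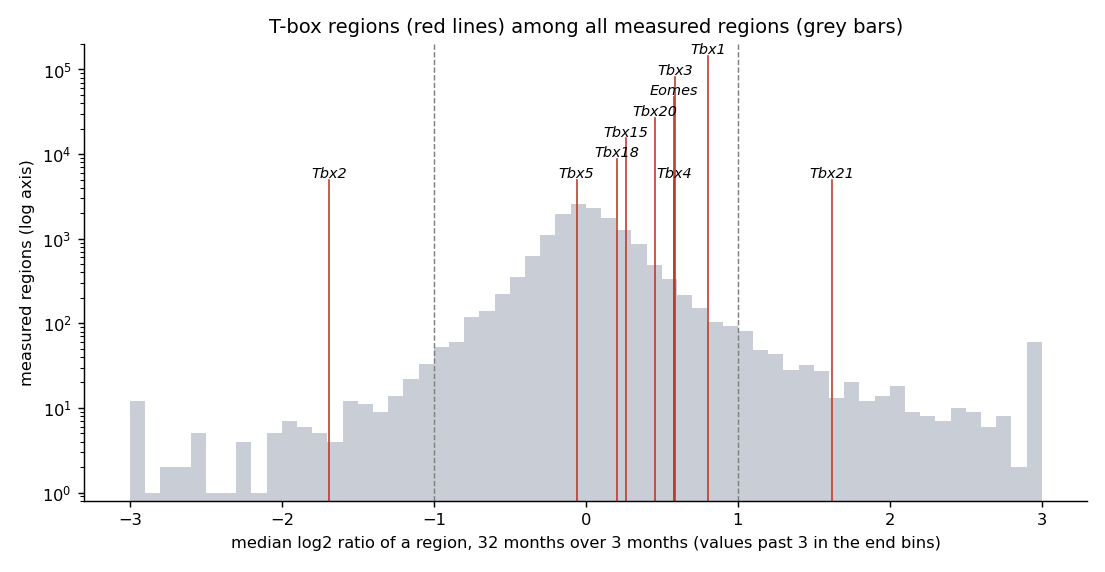
Grey bars count all measured regions by their median log2 ratio of 32-month over 3-month signal (x axis, values past 3 in the end bins; y axis, number of regions, log scale). Red lines mark the 10 T-box regions, their height being set for legibility alone. Tbx21 at 1.62 and Tbx2 at -1.69 lie past the dashed lines at 1 and -1, and the other 8 lie between -0.06 and 0.81.

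Tbx21 encodes T-bet, the factor that directs T helper cells to the type 1 programme and is needed by several innate lymphocytes. Its 4 probes, all annotated as promoter, gave 1420, 2050, 3890 and 2460 units of signal at 32 months, against 499, 761, 1350 and 902 at 3 months. The 32-month signal was above the 3-month signal at all 4, although the signal itself differed from probe to probe at both ages. The log2 ratios were 1.65, 1.57, 1.67 and 1.59, a median of 1.62 ± 0.047 (SD over 4 probes), or 3.07-fold. That spread over probes was smaller than that of replicated control spots on the same array. At or above this median lay 1.27% of all measured regions, and 3.15% to 3.50% of the usable probes of the array were at or above each of the 4 probes.

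The Tbx21 probes printed above hold few CG sites: probes 1 to 3 have none and probe 4 has 1. The RefSeq promoter window of the gene, which spans its start, has 21, against a median of 7 over 32851 RefSeq promoter windows, and is shown here for that contrast. None of the 4 probes was found within it. The CG sites are again in capitals.
Tbx21 promoter window (GRCm38.p6, chr11:97115282-97115581, minus strand): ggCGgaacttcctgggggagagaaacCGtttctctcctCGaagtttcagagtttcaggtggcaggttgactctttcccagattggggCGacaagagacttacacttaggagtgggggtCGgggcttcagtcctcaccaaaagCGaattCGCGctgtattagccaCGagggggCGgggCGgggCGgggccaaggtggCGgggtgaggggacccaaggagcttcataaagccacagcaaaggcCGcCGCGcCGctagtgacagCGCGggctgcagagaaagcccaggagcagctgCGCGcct

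Next to Tbx21 on the array, the nearest measured regions of other genes were Mrpl10, 73.6 kb before it, and Tbkbp1, 33.0 kb after it. Mrpl10, a mitochondrial ribosome gene, had a log2 ratio of 0.15 ± 0.25 (SD over 2 probes). Tbkbp1, which encodes a binding protein of the kinase Tbk1, had 0.22 ± 0.18 (SD over 7 probes). Both were inside the central 95% of all regions, from -0.70 to 1.09, while Tbx21 was above it.

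Eomes encodes the T-box factor that acts beside T-bet in CD8 T cells and natural killer cells and that also specifies endoderm in the embryo. Its region of 1629 bp had 9 probes, the most of the 10 genes, and 8 were usable. The 3 probes annotated inside the gene gave 7530, 3840 and 5860 units at 32 months, against 6390, 2360 and 3750 at 3 months. The 6 promoter probes were dimmer, with 192, 63.3, 63.0, 551, 734 and 561 units at 32 months, against 346, 67.5, 68.0, 466, 415 and 349 at 3 months, the second of them at background at both ages and the third at background at 3 months. The first promoter probe was lower at 32 months (log2 ratio -0.71), and the 7 other usable probes were above 0 with a highest value of 0.96. The median was 0.58 ± 0.56 (SD over 8 probes), below the call, and it was between 0.38 and 0.78 with any 1 probe left out. Golga4, 26.5 kb away and the nearest neighbour, had 0.23 ± 0.37 (SD over 3 probes).

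**Figure D2:**
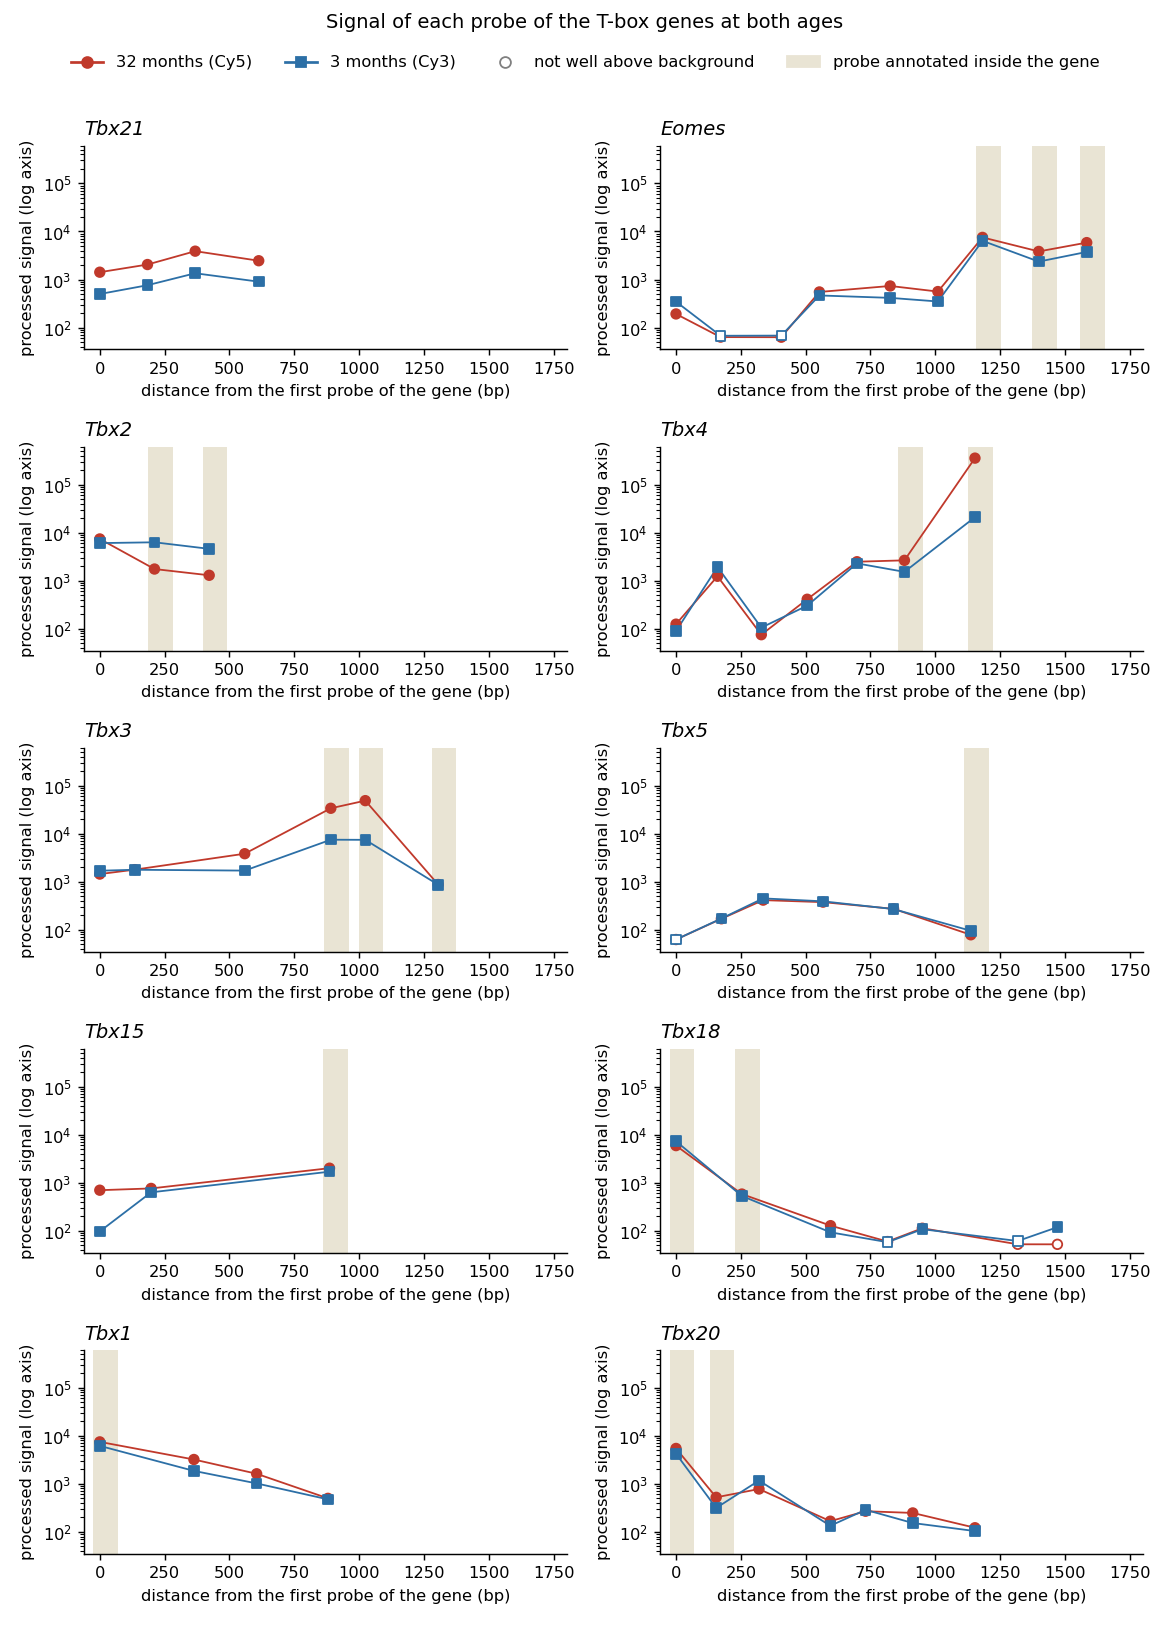
Processed signal (y axis, log scale, arbitrary units) of each T-box probe against its distance in bp from the first probe of its gene, at 32 months (red circles) and 3 months (blue squares). Open symbols were not well above background, and shaded strips mark probes annotated inside the gene. The lines separate along the whole Tbx21 region, part in the middle of Tbx3, at the right end of Tbx4 and at the left end of Tbx15, cross in Tbx2, and lie together in Tbx5.

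Tbx2 encodes a repressor that keeps parts of the embryonic heart from forming chamber muscle and that delays senescence in cultured cells. It had the lowest value of the 10 genes. Its promoter probe gave 7360 units at 32 months and 6030 at 3 months, a log2 ratio of 0.43. The next 2 probes, inside the gene, gave 1740 and 1290 units at 32 months, against 6270 and 4580 at 3 months. These 2 were 3.27-fold and 3.22-fold lower at 32 months (log2 ratios -1.71 and -1.69), each within the lowest 1.03% of usable probes on the array. The region median was -1.69 ± 1.23 (SD over 3 probes), and 0.352% of all regions were at or below it. It was not called lower because the promoter probe was above 0, so the difference lay in 2 of 3 probes, and with normexp background correction the median was -0.56.

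Tbx3, the close relative of Tbx2, is a repressor needed for the heart's conduction system and the mammary gland, and its region held probes that were higher at 32 months. Its 3 promoter probes gave 1440, 1780 and 3820 units at 32 months, against 1690, 1770 and 1700 at 3 months, with log2 ratios of -0.24, 0.0037 and 1.16. The 3 probes inside the gene gave 33700, 48600 and 872 units at 32 months, against 7470, 7430 and 864 at 3 months, with log2 ratios of 2.17, 2.71 and 0.0089. The 3 neighbouring probes in the middle of the region, over about the span from 559 to 1024 bp after the first probe, were thus higher at 32 months, and the probes on both flanks were not. The fifth probe, which holds 4 CG sites, was among the highest 0.860% of usable probes of its array, and the sixth had nearly equal signals at both ages. The region median was 0.59 ± 1.25 (SD over 6 probes) and was not called, being below 1.

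Tbx4, which marks the hindlimb bud and the lung mesenchyme, had the highest probe ratio of the 10 genes. Its last probe, inside the gene, gave 354000 units at 32 months and 20900 at 3 months, a log2 ratio of 4.22, which 0.401% of usable probes on the array reached. The probe before it, also inside the gene, gave 2640 units at 32 months and 1520 at 3 months, a log2 ratio of 0.94. The 5 promoter probes gave 124, 1230, 74.8, 409 and 2470 units at 32 months, against 89.2, 1920, 105, 301 and 2280 at 3 months. Their log2 ratios ran from -0.50 to 0.61 and lay on both sides of 0. The region median was 0.58 ± 1.59 (SD over 7 probes), not called, and the last probe was the brightest of all T-box probes at both ages.

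Tbx5, which marks the forelimb bud and drives heart chamber genes, was the member with the smallest differences. Its 5 usable probes gave 169, 413, 375, 272 and 78.4 units at 32 months, against 171, 449, 390, 269 and 95 at 3 months. Their log2 ratios ran from -0.28 to 0.012, with a median of -0.061 ± 0.12 (SD over 5 probes), less than the SD of control spots. The remaining probe read 62.5 units at both ages, at background.

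Both pairs of adjacent T-box genes on the arrays held unlike values. Tbx2 and Tbx4 lie 56.3 kb apart on chromosome 11, with medians of -1.69 and 0.58, and Tbx3 and Tbx5 lie 162.5 kb apart on chromosome 5, with medians of 0.59 and -0.061. Outside these pairs, Bcas3 before Tbx2 had 0.021 and Brip1 after Tbx4 had 0.28, while Tmem118 before Tbx3 had -0.16 and Rbm19 after Tbx5 had -0.012. None of these 4 flanking regions was called.

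**Figure D3:**
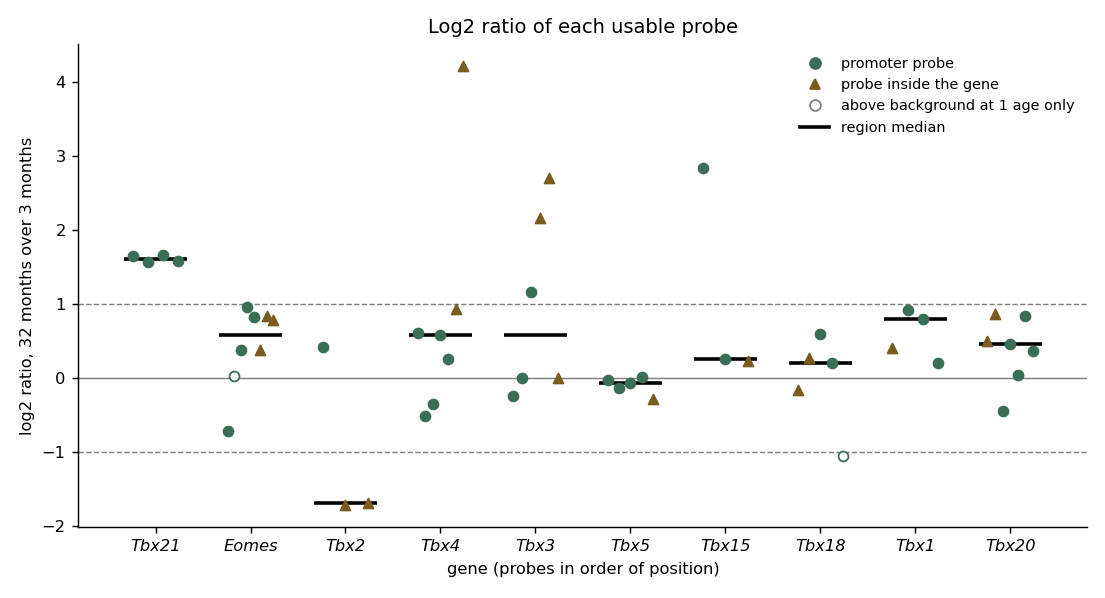
Log2 ratio of 32-month over 3-month signal (y axis) of each usable probe, by gene and in order of position (x axis), for promoter probes (circles, with those of the Tbx1 promoter shared with another gene) and probes inside the gene (triangles); open symbols were above background at 1 age. Black bars are region medians and dashed lines mark 1 and -1. The 4 Tbx21 probes lie together at 1.57 to 1.67, and in Tbx3, Tbx4 and Tbx15 between 1 and 3 probes stand above 1 while the others lie between -0.50 and 0.94.

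Tbx15 and Tbx18 are relatives that act in the skeleton, skin and mesenchyme, Tbx18 also in the smooth muscle around the ureter. The first probe of Tbx15, the farthest from the probe inside the gene, gave 700 units at 32 months and 97.0 at 3 months, a log2 ratio of 2.85 that 0.752% of usable probes on the array reached. The other 2 Tbx15 probes gave 762 and 2010 units at 32 months, against 632 and 1700 at 3 months, with log2 ratios of 0.27 and 0.24. All 3 were above 0, the median was 0.27 ± 1.5 (SD over 3 probes), and with 1 probe left out it ran from 0.25 to 1.56. The region after Tbx15, 454 kb away and named in the files by a transcript identifier alone, had 1.095 over 2 dim probes. Its median 3-month signal was 62.95 units, near the median of 63.2 for negative control spots of that array. It was the 1 called higher among 20 neighbouring regions, against 2.01% of all measured regions. These 20 include Tbx2, Tbx3, Tbx4 and Tbx5, which neighbour each other.

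Tbx18 had 7 probes, of which 5 were usable, and its median was 0.20 ± 0.63 (SD over 5 probes). The 2 probes inside the gene gave 5930 and 582 units at 32 months, against 7310 and 531 at 3 months. The 3 usable promoter probes were dim, with 128, 113 and 52.3 units at 32 months, against 92.9, 108 and 119 at 3 months. The last was not well above background at 32 months, near the median of 55.4 units for negative control spots. Its observed ratio was 2.07-fold towards 3 months and is not a lower bound. The other 4 had log2 ratios from -0.16 to 0.60. No Tbx18 difference above background thus reached 2-fold in a probe measured at both ages.

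Tbx1, a gene of the pharyngeal arches and the outflow tract of the heart, shares a divergent promoter with 4930588K23Rik in the files' annotation. The 3 probes of this promoter gave 3210, 1620 and 499 units at 32 months, against 1860, 1020 and 475 at 3 months. All were higher at 32 months, with log2 ratios of 0.93, 0.81 and 0.21 and a median of 0.81 ± 0.38 (SD over 3 probes), which was the uncalled T-box region nearest below the threshold. A lone Tbx1 probe inside the gene, which formed no measured region, gave 7470 units at 32 months and 6170 at 3 months, a log2 ratio of 0.41. The neighbours of Tbx1 had 0.14 (Gnb1l, 87.9 kb before) and 0.17 (a gene whose name in the files reads as a calendar date).

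Tbx20, a heart factor that works with Gata4 and Nkx2-5 in the mouse, had 7 usable probes with a median of 0.46 ± 0.46 (SD). The 2 probes inside the gene gave 5450 and 524 units at 32 months, against 4230 and 315 at 3 months. The 5 promoter probes gave 780, 167, 269, 248 and 122 units at 32 months, against 1170, 134, 288, 153 and 104 at 3 months. Of the 7 log2 ratios, 6 were above 0 with a highest value of 0.87, and the third probe had -0.45.

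For 3 probes the distance to the start of the gene was known, because their letters occur in the RefSeq promoter window of their gene (GRCm38.p6). They are shown because they place a value at the promoter itself, again with CG sites in capitals.
Eomes probe 5 (promoter, chr9:118326760-118326819): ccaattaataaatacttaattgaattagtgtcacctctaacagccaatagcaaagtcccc
Tbx18 probe 3 (promoter, chr9:87529258-87529307): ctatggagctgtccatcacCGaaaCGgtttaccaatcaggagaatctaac
Tbx20 probe 3 (promoter, chr9:24524748-24524792): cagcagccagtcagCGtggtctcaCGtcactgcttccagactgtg
The Eomes probe spans bases -127 to -68 from the start, holds no CG site and had a log2 ratio of 0.96. The Tbx18 probe spans -101 to -52, holds 2 CG sites and had 0.60, from dim signals of 128 units at 32 months and 92.9 at 3 months. The Tbx20 probe spans -82 to -38, holds 2 CG sites and had -0.45. The promoter windows of the 6 genes found in that table (7 windows, 2 of them of Tbx1) held 8 to 26 CG sites with a median of 16, against 7 over all 32851 windows.

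Differences within a gene were common among the members. Between neighbouring usable probes the log2 ratio changed by at least 1 in 6 of the 10 regions, against 29.6% of all measured regions, with largest steps of 3.29 in Tbx4, 2.70 in Tbx3, 2.58 in Tbx15, 2.14 in Tbx2, 1.32 in Tbx20 and 1.25 in Tbx18. The steps stayed below 1 in Eomes (0.74), Tbx1 (0.60), Tbx5 (0.29) and Tbx21 (0.097). At least 1 probe reached a log2 ratio of 1 in 4 of the 10 regions (Tbx3, Tbx4, Tbx15 and Tbx21), against 16.6% of all, and at least 1 reached -1 in 2 (Tbx2 and Tbx18), against 1539 of 15352. A region with more probes has more chances to hold such a probe, and the T-box regions had a median of 5 usable probes, against 4 over all regions.

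In the median count of CG sites the T-box probes with large ratios were like the others, and in median brightness they were not. The 12 T-box probes past 1 or -1 had a median of 1 CG site, as had the other 40 usable ones, and their median 3-month signal was 1525 units, against 470.5. Several of the 12 are neighbours within a gene, so they are not independent. By gene, those of Tbx3, Tbx4 and Tbx15 held 2 to 4 CG sites, and those of Tbx21, Tbx2 and Tbx18 held 0 or 1. Promoter probes reached 1 in 6 of 32 cases (18.8%, against 6.12% of all promoter probes) and probes inside a gene in 3 of 17 (17.6%, against 6.84%). The T-box regions were brighter than most: the median of their median signals was 996 units at 32 months and 732 at 3 months, against 475 and 470.5 over all regions. Calls were more frequent in bright regions, with 5.14% called higher in the brightest of 5 equal classes of 3-month signal and 1.04% in the dimmest. The brightest class held 3 of the 10, none of them called. Tbx21, with a median of 831.5 units at 3 months, lay in the class below it, where 1.76% were called higher. The part of brightness in the T-box values was not tested.

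**Figure D4:**
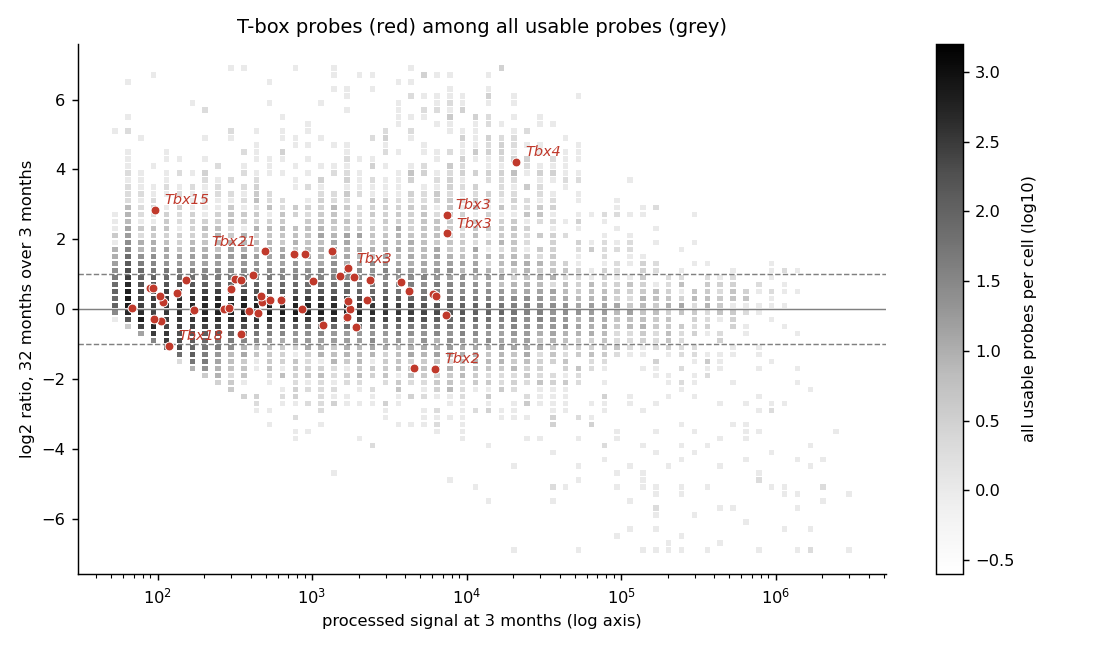
Log2 ratio of 32-month over 3-month signal (y axis) against 3-month signal (x axis, log scale, arbitrary units) for all usable probes (grey cells, darker for more probes, log10 scale) and for the T-box probes (red). The probes past the dashed lines at 1 and -1 are named by gene: they span 3-month signals from 97.0 units (Tbx15) to 20900 units (Tbx4).

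Of the other T-box genes, Tbr1 was called higher at 32 months. Tbr1, a factor of cortical neurons, gave 6010, 470, 2550, 570, 895, 627 and 506 units at 32 months, against 4860, 63.8, 2080, 174, 220, 163 and 228 at 3 months. All 7 probes were higher at 32 months, with a median log2 ratio of 1.71 ± 0.95 (SD over 7 probes), and 5 of them were above 1. At the second probe the 3-month signal was not well above background, near the median of 63.2 units for negative control spots. Its observed ratio was 7.34-fold towards 32 months and is not a lower bound. Tbx6, Tbx10, Tbx19 and Tbx22 had medians of 0.41, 0.081, 0.17 and -0.058 and were not called. Tbx22 lies on the X chromosome, whose 508 regions had a median of -0.071, against 0.017 over autosomal regions. All 5 probes of Mga were at background at both ages, and no probe carried the name of the founding gene T.

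Genes that work with T-box factors were set beside them as lists of names. Of all measured regions, 2.01% were called higher and 0.632% lower, and the lists below were chosen with earlier results known. Of 10 partner transcription factors, all measured, 3 were called higher and 0 lower, and the median over genes was 0.099. These 3 were Hand1 at 2.64 ± 0.97 (SD over 6 probes), Hand2 at 2.28 ± 2.53 (8 probes) and Gata4 at 2.04 ± 1.33 (6 probes). Of 15 measured signals and targets in limb, heart and pharynx, Bmp2 at 3.21 ± 0.35 (3 probes) and Pitx1, a hindlimb factor that acts upstream of Tbx4, at 1.00 ± 0.61 (4 probes) were called higher, and the median was 0.058. The Pitx1 median lay at the threshold, from median signals of 1360.5 units at 32 months and 745.5 at 3 months. Its call depends on the centring, which raised ratios on its array. Of the 10 measured genes of type 1 lymphocytes and competing T-cell programmes that are reported here, 0 were called higher, and their median was 0.027, with genes from -0.51 to 1.40. Prf1 (1.40, lowest probe -0.019) and Gata3 (1.23, lowest probe -0.20) were past 1 but not called, having a probe below 0. A Bmp4 region of the limb, heart and pharynx list (2.69, lowest probe -0.51) was uncalled for the same reason, and its other region had -0.011. No gene reported from the 3 lists was called lower.

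**Figure D5:**
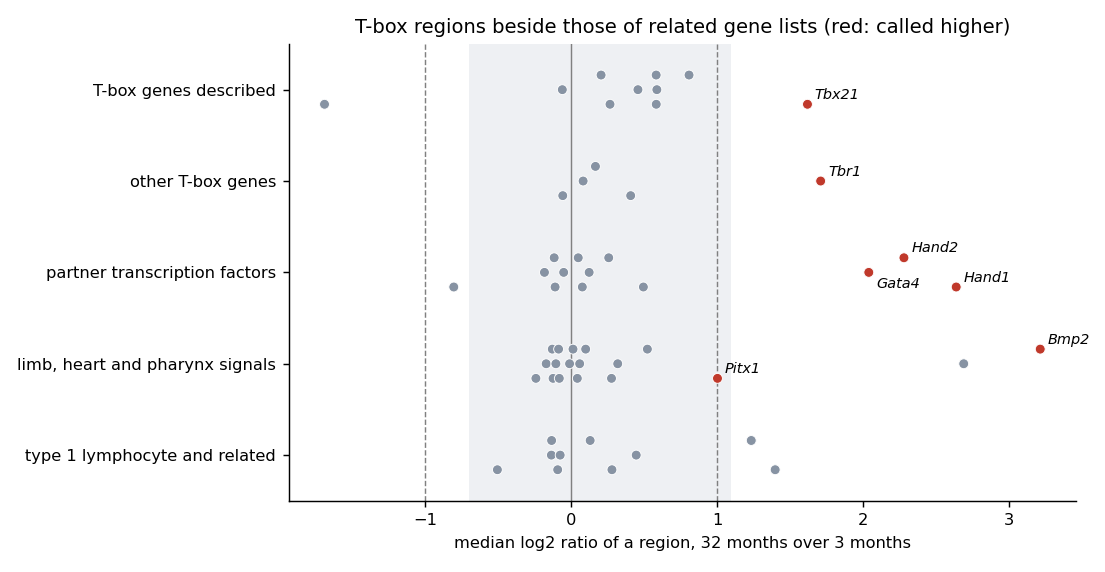
Median log2 ratio of 32-month over 3-month signal (x axis) of each measured region of the T-box genes and of 4 related gene lists (rows), with called regions in red and named. The grey band holds the central 95% of all measured regions, and dashed lines mark 1 and -1. Grey points past 1 held at least 1 probe below 0, and the called regions run from 1.00 (Pitx1) to 3.21 (Bmp2).

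Genes that mark the cell types of intestine had no called region, against 2.01% called higher and 0.632% called lower of all measured regions. This held for 9 measured epithelial genes (median log2 ratio -0.015, from -0.17 to 0.82). It held for 7 genes of T and B lymphocytes (-0.13, from -0.24 to 0.26), of which Cd3d and Cd3g share 1 region. It also held for 8 of smooth muscle and stroma (0.022, from -0.27 to 0.98) and 6 of enteric neurons and glia (-0.0069, from -0.53 to 0.55). Highest were Tagln of smooth muscle (0.98, probes from 0.35 to 4.47) and Lgr5 of epithelium (0.82, probes from 0.11 to 2.43). All their probes were above 0, but their medians were below 1. The lymphocyte genes lay below the 1.62 of Tbx21 at all 7, but only 1.27% of all measured regions reached that value. Their lying below it therefore says little about lymphocytes. All are values of DNA signal and not of expression. Whether the share of any cell type differed between the samples was not tested.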

How the data were processed

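Per the submitters' processing notes, Agilent Feature Extraction 9.1.3.1 read the images. Intensity here means the deposited processed signals, which per the file headers were background-subtracted, detrended and scaled between dyes. The software's log10 ratio, deposited in the same files, served as an alternative. The authors' value table equalled the processed signals in 100% of spots. No columns were left unmatched to samples (0).

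Ratios were computed with Python 3.11.15, numpy 2.4.6 and pandas 2.3.3, and alternatives with limma 3.58.1 in R 4.3.3. Control spots, spots with an outlier flag (11 and 28) and 272 probes without a position were left out. Well above background were 72.5% of probes at 32 months and 71.2% at 3 months on the first array, and 70.1% and 71.4% on the second. No probe was saturated (0). Each gene was measured on 1 array, which limits the precision. Regions needed at least 2 usable probes. With 1 sample per age no test was run.

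The members, lists and rules were chosen with earlier results of these data known. Named are all T-box genes with every region, the called members of 3 lists of related genes (up to 4 each) and the nearest region on each side of a member. Uncalled genes of these lists with a region median past 1 are named too. Of the cell type markers, Tagln and Lgr5 are named as the highest, and Cd3d and Cd3g as sharing 1 region. For a difference with 1 age at background, the fold given is that of the probe's own signals at both ages after centring, and is not a lower bound. RefSeq promoter windows are those of GRCm38.p6, and no other coordinate was taken from that build. A gene of the lymphocyte list and some probe sequences are not reported here. Alternatives covered the centring, background correction, choice of probes, joining, thresholds and leaving out 1 probe.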

Additional observations from a re-analysis of the deposited data

How the results depend on the processing

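Tbx21 was called higher under all 18 alternatives, with log2 ratios between 1.47 and 1.62, and with each of its 4 probes left out. Alternatives in the choice or joining of probes kept the same 4 probes at 1.62, as did the authors' value table, which equals the signals used. These could not change its call. With its probes all between 1.57 and 1.67, neither could the mean over probes, the 1.5-fold threshold, dropping the demand on agreement or leaving out 1 probe. All alternatives reuse the 1 array on which Tbx21 was measured, so they are no replication. The number of T-box regions called higher, 1 in the values reported, was 2 under 4 alternatives. Tbx1 joined it with normexp background correction and an offset of 50 (1.01) and at a threshold of 1.5-fold (0.81), and Tbx15 joined it with the mean over probes (1.12) and when probes were joined within 500 bp (1.56). In the other direction, Tbx1 had 0.61 when names sharing a gene were joined, and as little as 0.51 with 1 probe left out. The number called lower was 1 in place of 0 without the demand that all probes lie on one side, which added Tbx2 (-1.69). With 1 probe left out, Tbx15 was called higher in 2 of 3 cases, Tbx3 in 1 of 6 (1.16) and Tbx2 lower in 1 of 3 (-1.70), so whether these regions are called turns on 1 probe. The median over the 10 regions lay between 0.38 and 0.58 under the alternatives, and no called value changed sign. Tbx18, not called, ran from -0.043 to 0.24. Tbx2 ran from -1.83 (loess on brightness) to -0.56 (normexp).

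Over all measured regions, 309 were called higher and 97 lower. Without centring these were 241 and 133, with the scanner software's log ratio 242 and 134, and with normexp 421 and 20, which moved the median of all regions to 0.11. At 1.5-fold they were 678 and 344, at 3-fold 145 and 34, and without the demand on agreement 457 and 157. With dim probes kept they were 246 and 56. Centring on usable probes and joining names that share a gene were chosen after seeing the data. No paired analysis was possible because each age is 1 sample per array and the 2 arrays cover different chromosomes. Signal near background limits the ratios of the dim promoter probes of Tbx18 and Eomes.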
